A study of Mus musculus with 4 samples.

Results

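The giant filament proteins titin and nebulin, together with proteins of the Z-disc and the M-band, hold the muscle sarcomere in register. A set of 10 genes for such proteins was examined, namely Ttn, Neb, Myom1, Myom2, Tcap, Ldb3, Myoz1, Myoz2, Myot and Des. The set was chosen by gene name, and every probe that was not a control and whose transcript accession mapped to 1 of these symbols was kept. This gave 15 of the 39429 probes on the array, for 10 of 19751 named genes. Ttn had 4 probes, Neb and Ldb3 had 2 each and the other genes had 1 each. Probes of a gene are numbered here from the brightest to the dimmest.

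The cells were C2C12, a mouse muscle precursor line in wide use whose cells fuse into myotubes when serum is lowered, harvested on day 3 of differentiation. The treated cells received IFN-γ (interferon-gamma) at 1 ng/ml in differentiation medium with horse serum, and the control cells received the same medium without the cytokine. The labels give the horse serum as 2% in one field and 10% in another, for both groups alike. For all 4 arrays they also give 24 hours for the medium and at most 7 passages. On each of 4 arrays of the 2-colour kind, Cy5 marked the RNA from treated cells and Cy3 the RNA from untreated cells, and the arrays are labelled as biological replicates 1 to 4. Whether the controls were separate cultures is not stated, so the p-values cover the spread between arrays, which may in part be technical. No array had the dyes exchanged, so that dye and treatment cannot be told apart. The unit below is the log2 ratio of treated over control after loess normalisation, or where stated the normalised log2 intensity of 1 channel. C2C12 is a single cell line grown as a mixed culture, and in such RNA fewer differentiated cells and less RNA per cell cannot be told apart.

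In the sarcomere, the Z-disc anchors actin filaments of neighbouring units and the M-band links myosin filaments at the centre. Titin spans from Z-disc to M-band as a spring and ruler, and nebulin runs along the thin filament. Telethonin, encoded by Tcap, caps the titin ends at the Z-disc, and the myomesins, encoded by Myom1 and Myom2, bridge myosin and titin in the M-band. Ldb3 encodes ZASP (also called cypher), Myoz1 and Myoz2 encode myozenins, and Myot encodes myotilin, all of which bind alpha-actinin or its partners in the Z-disc. Desmin, encoded by Des, forms the intermediate filaments that tie Z-discs to each other and to the membrane. These genes are switched on as myoblasts differentiate, under control of myogenic E-box binding factors, MEF2 and the serum response factor.

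Promoter windows are shown because the members lie in a programme that such factors control. RefSeq windows (build GRCm38.p6, 250 bases before to 50 after a gene start) were given for 5 of the 10 genes, with 2 windows for Ldb3. The 200 bases before the start are printed 5′ to 3′ on the strand of the gene for Ttn (chr2:76982548-76982747, minus strand), Myoz2 (chr3:123034988-123035187, minus strand), Myom1 (chr17:71019357-71019556, plus strand), Des (chr1:75360092-75360291, plus strand) and the first Ldb3 window (chr14:34588682-34588881, minus strand). Capitals mark matches to the E-box, MEF2 and CArG motifs.
Ttn: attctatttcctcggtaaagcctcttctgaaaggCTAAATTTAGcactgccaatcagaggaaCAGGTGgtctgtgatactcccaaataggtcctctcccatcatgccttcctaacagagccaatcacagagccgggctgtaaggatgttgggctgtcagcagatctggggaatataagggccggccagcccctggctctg
Myoz2: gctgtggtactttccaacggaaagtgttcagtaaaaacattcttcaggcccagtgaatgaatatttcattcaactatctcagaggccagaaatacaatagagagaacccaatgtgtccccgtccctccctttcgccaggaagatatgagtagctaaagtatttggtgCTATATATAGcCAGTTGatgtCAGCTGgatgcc
Myom1: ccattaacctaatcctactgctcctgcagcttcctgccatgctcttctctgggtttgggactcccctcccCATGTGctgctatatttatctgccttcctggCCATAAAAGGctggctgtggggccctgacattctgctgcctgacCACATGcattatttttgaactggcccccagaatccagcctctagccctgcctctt
Des: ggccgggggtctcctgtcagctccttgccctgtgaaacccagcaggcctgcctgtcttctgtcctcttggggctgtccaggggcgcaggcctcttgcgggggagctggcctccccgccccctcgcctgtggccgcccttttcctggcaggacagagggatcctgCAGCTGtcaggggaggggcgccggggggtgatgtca
Ldb3: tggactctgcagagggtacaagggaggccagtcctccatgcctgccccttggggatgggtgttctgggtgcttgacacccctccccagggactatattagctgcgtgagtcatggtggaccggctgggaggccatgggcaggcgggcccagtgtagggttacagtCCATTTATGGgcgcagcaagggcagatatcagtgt

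The MEF2 motif matched in Ttn from -166 to -157 and in Myoz2 from -33 to -24, counted from the gene start, and 3.19% of all 32851 windows of this length hold a match. The CArG motif, bound by the serum response factor, matched in Myom1 from -99 to -90 and in Ldb3 from -35 to -26, against 1.63% of all windows. E-boxes (CANNTG) occurred in the windows of Ttn, Myoz2, Myom1 and Des and not in those of Ldb3, but 72.3% of all windows hold one. Of the other motifs reported, CATTCC matched in Ttn downstream of the start (14.7% of all windows), and TATAAA matched in none of the member windows used (13.6%). Both strands were searched, no match in these windows overlapped another, and a match is a string of letters only.

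Under loess, at least 1 probe of each of the genes for titin, nebulin, desmin, both myomesins, telethonin and myozenin 2 had lower signal in IFN-γ treated than in untreated cells. Probe 2 of Neb (-0.09) and probe 4 of Ttn (-0.27) were not called, and the calls of Tcap and Myoz2 were lost when single arrays were left out. No probe of the Ldb3, Myoz1 and Myot genes passed the test. Of the 15 probes, 9 were called lower and 0 higher at an adjusted p under 0.05 (limma, two-sided, adjusted over all probes tested), against 12.6% of the 28933 tested probes called lower and 16.5% called higher. At least 2-fold lower and called were 4 probes, against 1.12% of all tested probes. At an unadjusted p under 0.05, 11 of the 15 were lower, against 5488 of the 28933 tested probes. The median log2 ratio of the 15 probes was -0.63, and that of all tested probes was 0.014. By array, the median of the 15 was -0.38, -0.53, -0.76 and -0.37 on replicates 1 to 4. Of the 15 probes, 11 lay below 0 on all 4 arrays, against 22.2% of all tested probes. The normalised intensities of both channels did not overlap for 10 of the 15 probes, all lower in treated cells, against 11.7% of all probes compared. The counts depend on the scaling. With each array centred on its median instead of loess, the median of all tested probes stood at 0.54 and that of the 15 probes at 0.20. Of the 15, 3 were then called lower and 4 higher, against 20.5% lower and 16803 of 28933 higher over all tested probes. Of the 15 probes, 12 lay below the median of all tested probes there, and Myoz2, probe 2 of Neb and probe 1 of Ldb3 lay above it by 0.01, 0.41 and 0.41.

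**Figure D1:**
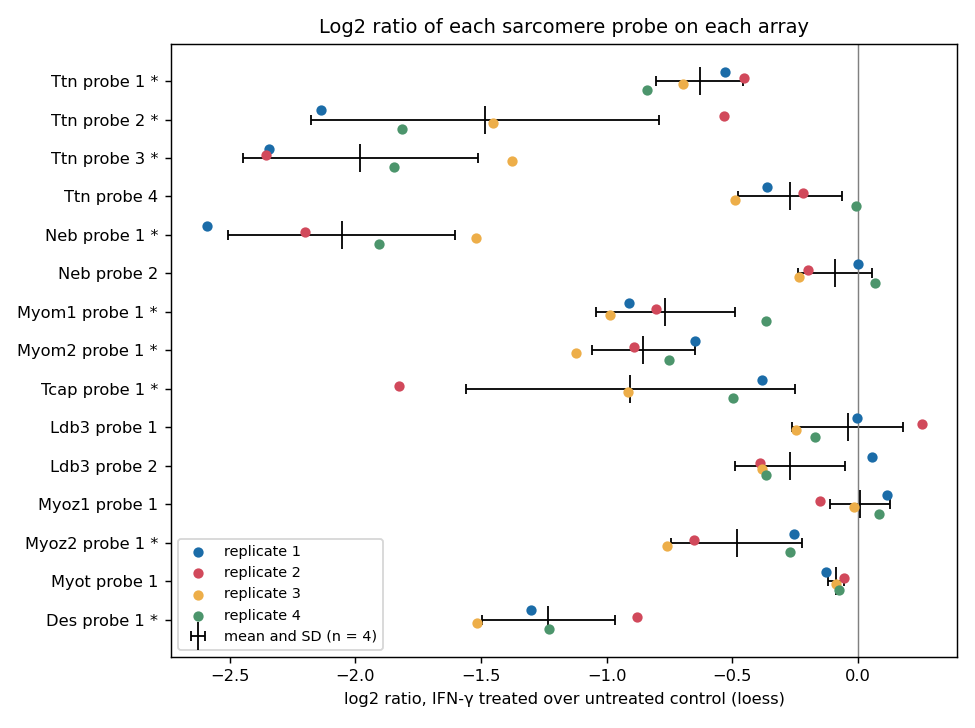
Log2 ratio of IFN-γ treated over untreated cells after loess for each of the 15 probes, with 1 point per array, the mean as a tick and the SD over 4 arrays as a bar; an asterisk marks the 9 probes lower at an adjusted p under 0.05. Probe 1 of Neb (mean -2.06) and probe 3 of Ttn (mean -1.98) lie farthest to the left, and the signs of 9 of the 14 probes with negative means turn positive under median centring.

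Titin transcripts gave lower signal in treated cells at 3 of 4 probes, by amounts that differed between probes. Probe 3 of Ttn had normalised log2 intensities of 9.87, 8.71, 10.48 and 10.31 in treated cells on replicates 1 to 4, against 12.21, 11.07, 11.86 and 12.15 in control cells. The groups did not overlap, replicate 2 was the dimmest in both channels, and the log2 ratios were -2.34, -2.36, -1.38 and -1.85. The mean of -1.98 ± 0.47 (SD, n = 4) is a 3.95-fold lower signal (adjusted p = 0.00177), the 23rd lowest mean of the 28933 tested probes.

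Probe 2 of Ttn had log2 intensities of 10.16, 10.54, 10.30 and 10.45 in treated cells and 12.30, 11.07, 11.75 and 12.26 in control cells. The treated values lay close together, while replicate 2 had the lowest control value and the smallest difference. The mean log2 ratio was -1.48 ± 0.69 (adjusted p = 0.0105), and the call was lost without replicate 3 (adjusted p = 0.0573) and without replicate 4 (adjusted p = 0.0594). Probe 1 of Ttn, the brightest, had 13.39, 13.35, 13.26 and 12.96 in treated cells, against 13.92, 13.80, 13.96 and 13.80 in control cells. These groups did not overlap either, and the mean log2 ratio was -0.63 ± 0.17 (adjusted p = 0.00509), a 1.55-fold lower signal. Under median centring the sign of probe 1 was opposite, at 0.42, which passed the test as higher (adjusted p = 0.00596) while lying below the median of all tested probes there.

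Probe 4 of Ttn, designed to another RefSeq transcript of the gene than probes 1 to 3, had 7.90, 8.08, 7.91 and 8.18 in treated cells and 8.26, 8.30, 8.40 and 8.18 in control cells. Its groups did not overlap, though on replicate 4 the channels were nearly equal, with a log2 ratio of -0.007. The mean log2 ratio was -0.27 ± 0.21 and did not pass (adjusted p = 0.0776, 95% interval of the mean -0.50 to -0.042). With Feature Extraction's own ratios it had -0.54 and passed (adjusted p = 0.0283).

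Nebulin was measured by 2 probes of the same RefSeq transcript, which disagreed. Probe 1 of Neb had log2 intensities of 11.54, 11.11, 12.41 and 12.15 in treated cells, against 14.13, 13.31, 13.93 and 14.05 in control cells. Every treated value lay below every control value. The log2 ratios were -2.59, -2.20, -1.52 and -1.91, with a mean of -2.06 ± 0.45 (adjusted p = 0.0015), a 4.16-fold lower signal and the 19th lowest mean of all tested probes.

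Probe 2 of Neb had 11.35, 11.21, 11.30 and 11.39 in treated cells and 11.35, 11.41, 11.53 and 11.32 in control cells. The groups overlapped, and the ratio was above 0 on replicates 1 and 4 and below 0 on the others. Its mean log2 ratio was -0.09 ± 0.15 (adjusted p = 0.421, 95% interval -0.28 to 0.098), so a fall as large as that of probe 1 lay outside its interval. Under median centring it had 0.95 and passed as higher (adjusted p = 8.3e-05).

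The difference between the probes of a gene was tested for every gene with at least 2 tested probes, a test chosen after the values had been seen. It was run on 5617 pairs of probes in 3923 genes, of which 30.0% had an adjusted p under 0.05 (limma). The log2 ratio of probe 1 of Neb minus that of probe 2 was between -2.6 and -1.29 on the 4 arrays. The mean difference of -1.97 ± 0.54 (adjusted p = 0.00363) was the 22nd largest in size of all pairs, and 0.392% of pairs differed at least as much. Among the 6 pairs of Ttn probes, 4 differed at an adjusted p under 0.05. Probe 3 minus probe 4 was -1.71 ± 0.56 (adjusted p = 0.00537), and probe 2 minus probe 4 was -1.21 ± 0.72 (adjusted p = 0.0228). Probe 1 lay above probe 3, with mean log2 ratios of -0.63 and -1.98 (adjusted p = 0.0111), and above probe 2 by 0.85 ± 0.63 (adjusted p = 0.0436). The pairs of probes 2 and 3 (adjusted p = 0.295) and of probes 1 and 4 (adjusted p = 0.089) did not pass. The means of the Ttn probes spanned 1.71 log2 units and those of the Neb probes 1.97, and 4.54% of genes with several tested probes spanned at least 1. The place of each probe within its transcript was not analysed here.

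**Figure D2:**
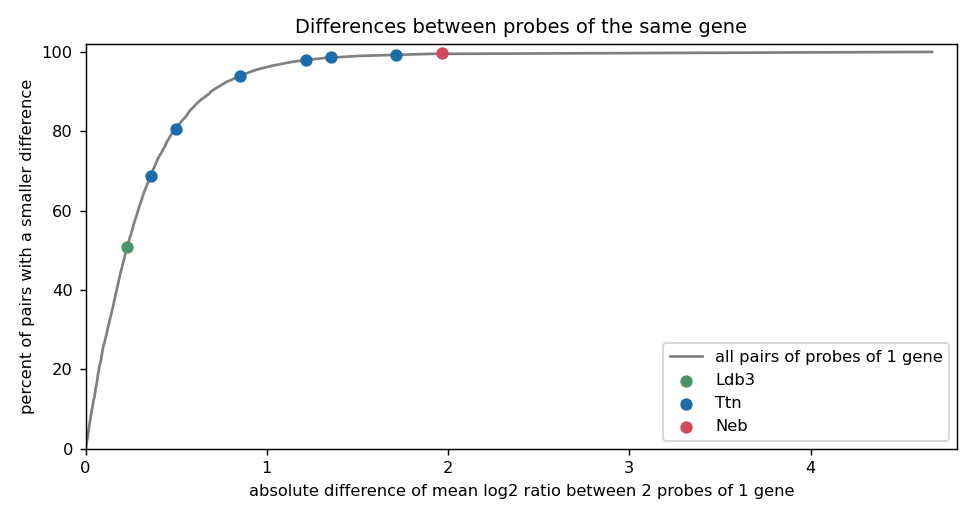
Share of all 5617 pairs of probes of 1 gene with a smaller difference (vertical axis, percent) against the absolute difference in mean log2 ratio between both probes (horizontal axis). The Neb pair (1.97) and 4 of the 6 Ttn pairs (0.85 to 1.71) lie in the upper end of the curve, and the Ldb3 pair (0.23) lies near its middle.

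Both myomesin genes of the M-band had lower signal in treated cells under loess. Myom2 had log2 intensities of 15.87, 15.69, 15.80 and 15.75 in treated cells and 16.51, 16.58, 16.92 and 16.50 in control cells. The channels were separated on every array, and the mean log2 ratio was -0.85 ± 0.21 (adjusted p = 0.00303), a 1.81-fold lower signal. Myom1 had 10.91, 11.13, 11.09 and 11.26 in treated cells and 11.82, 11.93, 12.07 and 11.63 in control cells. The groups did not overlap, replicate 4 gave the smallest difference at -0.36, and the mean log2 ratio was -0.77 ± 0.28 (adjusted p = 0.00698). Under median centring Myom2 and Myom1 had 0.22 and 0.27, neither of which passed and both of which lay below the median of all tested probes.

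At the Z-disc, Tcap and Myoz2 were lower in treated cells under loess, each with a call that was lost when single arrays were left out. Tcap had log2 intensities of 10.46, 9.63, 10.15 and 9.99 in treated cells, against 10.84, 11.46, 11.07 and 10.49 in control cells. Replicate 2 held both the lowest treated and the highest control value, and its log2 ratio of -1.83 stood against -0.38, -0.92 and -0.50 on the other arrays. The mean was -0.91 ± 0.66 (adjusted p = 0.0382). The call was lost without replicate 1 (adjusted p = 0.0551), without replicate 3 (0.132) and without replicate 4 (0.0843), and with the unpaired test that the methods name (0.0599). Without replicate 2 the mean was -0.60 and the call held (adjusted p = 0.00483).

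Myoz2, which encodes the myozenin of slow and cardiac muscle, had 10.90, 10.87, 10.82 and 10.99 in treated cells and 11.15, 11.52, 11.58 and 11.26 in control cells. The treated values were nearly equal, and the spread of the ratios followed the control channel. The mean log2 ratio was -0.48 ± 0.26 (adjusted p = 0.0231), and the call was lost without replicate 3 (adjusted p = 0.0952) and without replicate 4 (0.0573). Under median centring Tcap had 0.096, and Myoz2 had 0.55 and passed as higher (adjusted p = 0.00273), at about the median of all tested probes.

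Myoz1, which encodes the myozenin of fast muscle, was dim, with log2 intensities of 6.95, 6.77, 6.78 and 6.81 in treated cells and 6.83, 6.92, 6.79 and 6.73 in control cells. The groups overlapped, and the mean log2 ratio was 0.0093 ± 0.12 (adjusted p = 0.935, 95% interval -0.16 to 0.18). Myot had 6.56, 6.62, 6.55 and 6.45 in treated cells and 6.69, 6.67, 6.64 and 6.52 in control cells. It was well above background in treated cells on 4 arrays and in control cells on 1 array. Its log2 ratios lay between -0.13 and -0.052, and the mean of -0.086 ± 0.031 did not pass (adjusted p = 0.302, 95% interval -0.22 to 0.053). Under median centring Myot had -0.46 and passed as lower (adjusted p = 0.00427), on the same side of the median of all tested probes as under loess.

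The 2 probes of Ldb3, which belong to different RefSeq transcripts of the gene, did not pass under loess. Probe 1 had 10.34, 10.76, 10.10 and 10.28 in treated cells and 10.34, 10.50, 10.34 and 10.45 in control cells. The groups overlapped, and the mean log2 ratio was -0.04 ± 0.22 (adjusted p = 0.787, 95% interval -0.28 to 0.20). Under median centring it had 0.95 and passed as higher (adjusted p = 6.2e-05). Probe 2 had 7.92, 7.53, 7.98 and 7.88 in treated cells and 7.86, 7.92, 8.36 and 8.25 in control cells. The mean was -0.27 ± 0.22 (adjusted p = 0.0848), with replicate 1 at 0.058 apart from the others at -0.39 to -0.37. The difference between both probes, 0.23 ± 0.30, did not pass (adjusted p = 0.217).

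Of the set genes measured by 1 probe, desmin had the lowest mean ratio, in a probe printed 10 times on every array. Des had log2 intensities of 13.41, 13.57, 13.12 and 13.44 in treated cells, against 14.71, 14.45, 14.63 and 14.67 in control cells. The groups did not overlap, and replicate 2 gave the smallest difference. The mean log2 ratio was -1.23 ± 0.26 (adjusted p = 0.00176), a 2.35-fold lower signal. The 10 spots of an array had SDs of 0.028, 0.017, 0.031 and 0.036 on replicates 1 to 4 around means of -1.30, -0.88, -1.51 and -1.23. The SD between arrays was thus several times that between spots of 1 array.

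**Figure D3:**
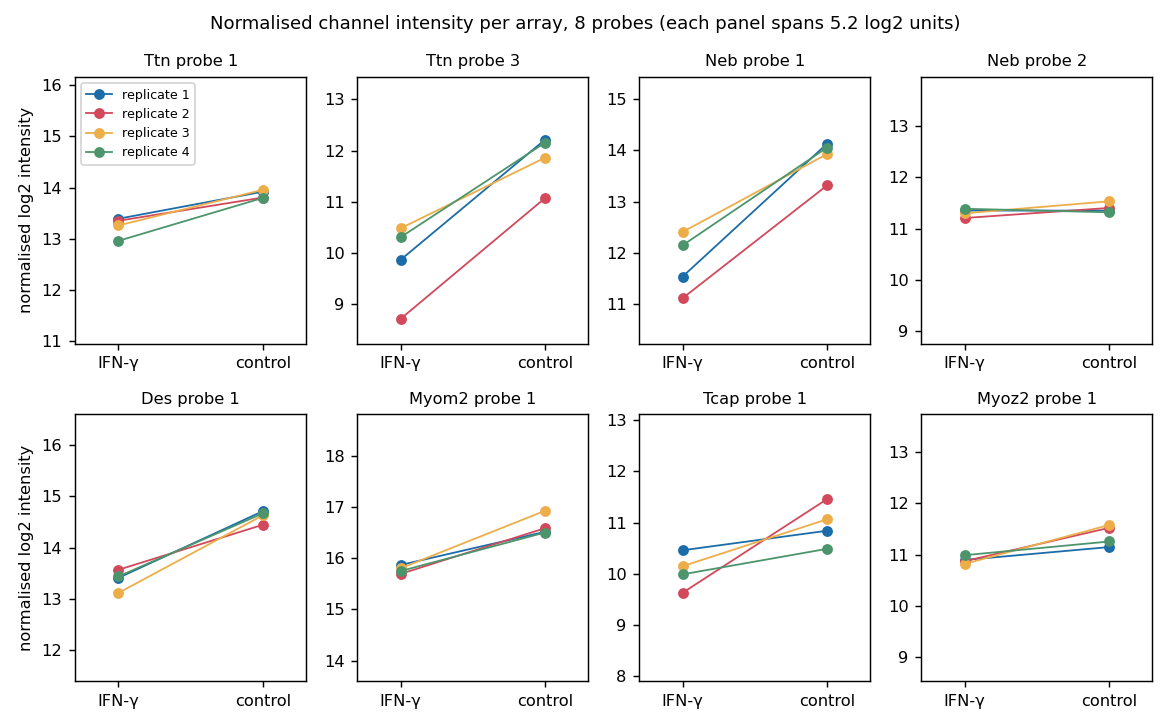
Normalised log2 intensity in IFN-γ treated cells (left in each panel) and untreated control cells (right) for 8 probes, with a line for each of 4 arrays and the same span of log2 units in every panel. Treated and control values are separated for probes 1 and 3 of Ttn, probe 1 of Neb, Des, Myom2, Tcap and Myoz2, and they overlap for probe 2 of Neb; levels of different probes cannot be compared.

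The loess step removed a large excess of Cy5 that, at the set probes, grew with brightness mainly among the dim ones. Before loess, the median log2 ratio of tested probes was 1.35, 1.10, 2.08 and 1.59 on replicates 1 to 4. The ratio removed was 0.49 to 0.89 at the dim Myot probe, 1.57 to 2.66 at the brighter Tcap probe and 1.56 to 2.75 at the still brighter Des probe. Most members therefore had brighter Cy5 than Cy3 spots as scanned: Des had median spot intensities of 25596, 16785, 22094 and 24387 in Cy5 (treated) and 17383, 10500, 9377 and 12988 in Cy3 (control). Probe 1 of Neb had 6930.5, 2968, 13683 and 9931.5 in Cy5 and 11644, 4634, 5870.5 and 8536 in Cy3. On replicates 1 and 2 its Cy3 spot was thus the brighter even as scanned, as was that of probe 3 of Ttn. The Cy3 spot was also the brighter for probe 2 of Ttn on replicate 1 (2578 in Cy5, 3177.5 in Cy3) and for Tcap on replicate 2 (1039.5 and 1263). The share of tested probes with such a reversed ratio after background correction was 0.277% on replicate 1 and 1.9% on replicate 2. Under median centring, which leaves the dependence on brightness in place, probe 1 of Neb had -1.01, probe 3 of Ttn -0.96, probe 2 of Ttn -0.45 and Des -0.18, and the first 2 of these passed the test.

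**Figure D4:**
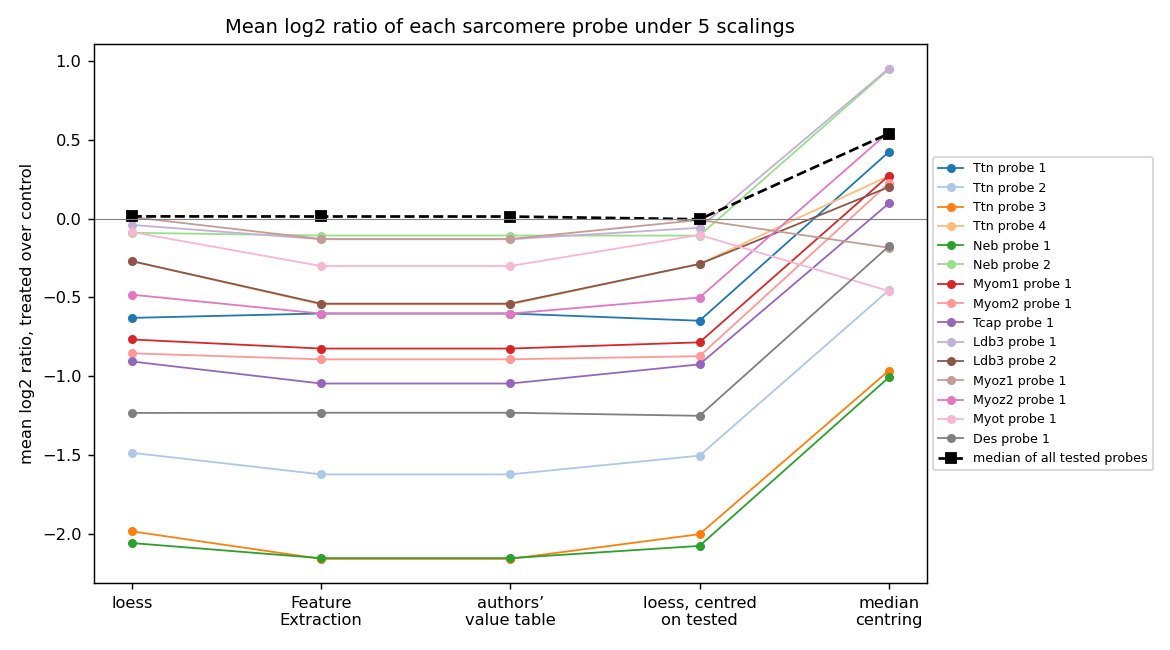
Mean log2 ratio of treated over control for each of the 15 probes (lines) and the median of all tested probes (dashed) under 5 scalings of the same arrays. The authors' table nearly repeats the Feature Extraction ratios, and centring on tested probes only shifts the loess values of each array, so these are not separate checks. The median of the 15 probes is -0.60 to -0.65 in the first 4 scalings. From loess to Feature Extraction, probe 4 of Ttn and probe 2 of Ldb3 each go from -0.27 to -0.54, and Myot from -0.086 to -0.30. Median centring moves the median of all tested probes to 0.54 and that of the 15 to 0.20.

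Other structural genes of the sarcomere, 1 probe per gene and the brightest tested, were described from lists that are not independent of earlier results. On this basis, under loess, 7 of the 10 set genes were lower and 0 higher, with a median log2 ratio of -0.70, while 12.9% of 15678 genes were called lower and 18.8% higher, with a median of 0.026. Under median centring 3 set genes were higher and 2 lower, and the set median was 0.16, against 0.73 for all these genes. Over all 28933 tested probes, 16803 were called higher and 5941 lower under that scaling. The list counts below are of 1 bright probe per gene, so these probe counts are not a like measure for them. The median over all tested probes was 0.54 there, against the 0.73 over genes. Calls over all genes under median centring are not given here.

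Among 11 tested genes for other M-band and titin-associated proteins, 6 were lower, 1 was higher and 4 did not pass. The list median was -0.53, and under median centring it was 0.34, with 5 genes higher and 0 lower. Myom3, the third myomesin gene, had log2 ratios between -1.14 and -0.91, with a mean of -1.03 ± 0.10. Obsl1, which encodes a relative of the giant protein obscurin, had -0.85 ± 0.18, with -0.23 on its second probe. Ckm, the muscle creatine kinase that binds the M-band, had -1.12 ± 0.73, with -2.17 on replicate 2. Fhl2, a LIM domain protein, had 0.052 ± 0.19 and did not pass. The 3 genes named first all passed the test under loess, and under median centring Myom3 had 0.018, while Ckm kept a negative mean of -0.11.

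Of the other Z-disc genes, 20 were tested, with 5 lower, 3 higher and 12 past neither threshold. Their median was -0.14 under loess and 0.58 under median centring, where 14 were higher and 2 lower. Actn3, the alpha-actinin of fast fibres, had -0.95 ± 0.29, Csrp3, which encodes muscle LIM protein, had -0.80 ± 0.49, and Palld, which encodes palladin, had -0.56 ± 0.11, all past the threshold. Flnc, which encodes filamin C, had -0.11 ± 0.26. The share lower in this list, 5 of 20, was nearer to the 12.9% of all genes than the 7 of 10 of the set, and the difference was not tested.

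Among 10 genes for capping and length of the thin filament, 5 were lower and 3 higher under loess (median -0.19), 5 were lower and 0 higher with Feature Extraction's ratios, and 0 were lower and 7 higher under median centring (median 0.54). Tmod1, which caps the pointed end, had -0.78 ± 0.11. Klhl40 and Klhl41, kelch proteins that stabilise nebulin and thin filament proteins, had -0.80 ± 0.42 and -0.56 ± 0.10. Lmod2, a leiomodin, had 0.078 ± 0.36 and did not pass. Of 8 genes for other intermediate filament proteins or partners of desmin, 1 was lower, 1 higher and 6 did not pass under loess (median -0.081). Under median centring 0 of these were lower and 6 higher (median 0.87). Vim, which encodes the vimentin of undifferentiated cells, had log2 ratios of 0.76, 1.42, 0.82 and 0.89, a mean of 0.97 ± 0.31 (adjusted p = 0.00458). Sync, which encodes the desmin partner syncoilin, had -0.97 ± 0.60, past the threshold, and Plec, which encodes the linker plectin, had -0.25 ± 0.14.

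Set beside the contractile proteins proper, the medians under loess were -0.67 over 6 sarcomeric myosin heavy chain genes (5 lower, 1 higher), -0.51 over 10 troponin and tropomyosin genes (6 lower, 1 higher) and -0.39 over 4 actin and alpha-actinin genes (1 lower, 0 higher). Under median centring 4 myosin genes were higher and 1 lower (median 0.41). In the same scaling 7 troponin and tropomyosin genes were higher and 0 lower (0.55), and 3 actin and alpha-actinin genes were higher and 0 lower (0.60). Over all 28933 tested probes, 16803 were called higher and 5941 lower there, which is not a like measure for counts of 1 bright probe per gene. These list medians lay below the 0.73 of all genes. Myh4, the fast myosin IIb, had -2.12 ± 0.36, and the fast troponins Tnni2 and Tnnc2 had -0.92 ± 0.30 and -0.79 ± 0.33, all past the threshold. Of these 3, Myh4 alone kept a negative mean under median centring, at -1.07. No test of a difference between these lists and the set was made.

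**Figure D5:**
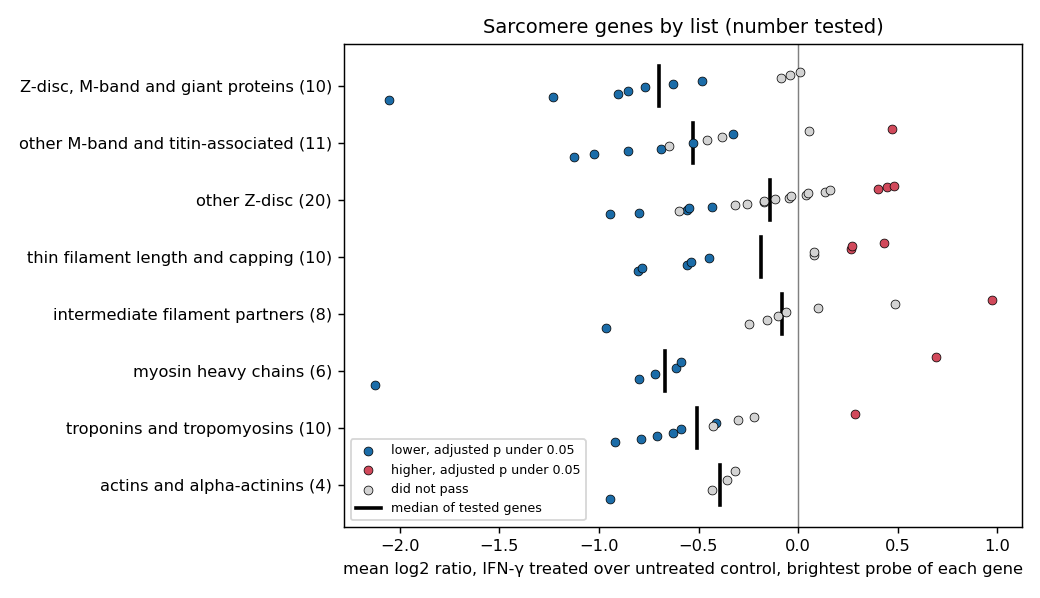
Mean log2 ratio of treated over control after loess for the brightest tested probe of each gene, by list, with the number of tested genes in brackets, a bar at the list median, and colour for genes lower (blue), higher (red) or not past an adjusted p of 0.05 (grey). In the first row, 7 of 10 genes are lower and 3 lie near 0, while other Z-disc genes spread to both sides. All 8 list medians, negative here, are positive under median centring, where the median of all genes is 0.73.

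All 8 markers of differentiating muscle were above background, and 3 of them were lower and 0 higher in treated cells under loess, against 0 lower and 6 higher under median centring. The 5 that did not pass had -0.42 (Mb), -0.36 (Acta1), -0.12 (Chrna1, with -0.62 on its second probe), -0.021 (Myod1) and -0.0081 (Myog). The summed normalised intensity of the muscle markers was 279679 to 374139 in treated cells and 406642 to 534820 in control cells. Bright probes weigh most in such a sum, and Myh3 was the brightest, at a mean log2 intensity of 16.88 over both channels. Ckm, Myh3 and Acta1 also belong to the lists above. Among 6 markers of undifferentiated myoblasts, 2 were higher and 1 lower under loess (4 and 1 under median centring). The brightest probe of Vcam1, one of the higher, had no value on replicate 2 and log2 ratios of 1.20 to 1.55 on the other arrays. The second probe of Vcam1 had a mean log2 ratio of 1.17. Intensities were then summed over the 8 of 9 myoblast probes measured on all 4 arrays. This left out the brightest Vcam1 probe but kept the second. The sums were 6751 to 8434 in treated cells and 7083 to 8328 in control cells. Of 8 fibroblast markers, 6 were tested, and 4 were higher and 0 lower under loess (5 and 1 under median centring). The fibroblast sums were 201348 to 259657 in treated cells and 109923 to 135990 in control cells. The brightest of these probes was that of Col3a1, at a mean log2 intensity of 16.61 over both channels and a log2 ratio of 1.15 ± 0.30. Tcf21 and Thy1 were below background. Of 5 adipocyte markers 4 were below background, as were the endothelial Cdh5 and Emcn and the macrophage marker Mrc1. The macrophage sums were 45807 to 72376 in treated cells and 57449 to 80651 in control cells, with 1 of 5 tested genes higher and 1 lower under loess (3 and 1 under median centring). These sums mainly follow 1 gene, Itgam, whose brightest probe had a mean log2 intensity of 15.93 over both channels. The brightest probes of the other tested macrophage genes lay at 6.50 to 9.78. The endothelial sums were 2005 to 2840 in treated cells and 3488 to 4797 in control cells, with 0 of 4 tested genes higher and 1 lower under loess (1 and 2 under median centring). The adipocyte sums were 434 to 459 in treated cells and 429 to 470 in control cells. The part of these shifts in the fall of the sarcomere genes was not tested.

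The genes outside the set whose 4 log2 ratios lay nearest to the median of the 15 probes on each array, by root mean square difference, were Erf (0.048), Insyn1 (0.065), Otud7a (0.068), Nrap (0.075) and Cotl1 (0.078). Their mean log2 ratios were -0.51, -0.50, -0.47, -0.45 and -0.52. Nrap encodes a nebulin-related protein of muscle attachment sites, and Cotl1 encodes an actin-binding protein. The value of Nrap is that of its brightest probe, and its second tested probe had a mean of -0.0095. Of 15042 genes compared, 236 lay within 0.2, so that closeness over 4 arrays was common.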

How the data were processed

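The deposited scanner files hold intensities: spot and background medians and processed signals. Feature Extraction version 10.7.3.1 is named in the submitters' processing notes. They also hold log10 ratios of Cy5 over Cy3, per the file headers. The authors' deposited value table is in log2 units, per the series' design text; against the scanner log10 ratios over tested probes its slope was 3.32 on each array, so it runs treated over control. How it was centred stays unknown, with column medians of -0.109, -0.116, -0.124 and -0.105.

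Intensities were background-corrected (normexp, offset 50), normalised within arrays by loess with control spots at weight 0, and averaged per probe without outlier-flagged spots (limma 3.58.1, R 4.3.3). Channel levels were further scaled by Aquantile. Tested probes had 1 channel, the same throughout, well above background on 3 or 4 arrays. Each probe's mean log2 ratio was tested against 0 with lmFit and eBayes, with Benjamini-Hochberg adjustment over 28933 probes. Symbols came from RefSeq (GRCm38.p6): 26055 probes had 1 symbol, 0 several and 13374 none; the array design names mm9, so gene coordinates are not printed. The test was tried on simulated data. One motif search is not reported here.

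Cy5 medians per array were 149.5 to 264 and Cy3 medians 79.75 to 97, no tested spot was saturated, and the arrays' ratios correlated at 0.539 to 0.893, least for replicate 2. The number of arrays limits the precision. Named genes are all member probes, up to 3 called genes with the largest change per list, the brightest that did not pass, and the 5 nearest genes. The members and lists were chosen with earlier results of these data known. Alternatives covered scaling, background, filter, probe choice, test and left-out replicates.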

Additional observations from a re-analysis of the deposited data

Results flagged for a closer look

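Of 54 probes (the set and the other named genes) examined over 4 arrays, 1 had an array far from the other 3. Probe 2 of Ldb3 had a log2 ratio of 0.058 on replicate 1 and of -0.39 to -0.37 on the others; its gap to the nearest array was 0.946 of the whole range. Without replicate 1 its mean was -0.38 with an adjusted p of 0.032. Chance flags about 1 in 20 groups of 4.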

How the results depend on the processing

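The count of 9 set probes called lower was 8 to 10 with Feature Extraction's ratios, the authors' value table, centring on tested probes, no background subtraction, an offset of 16, no filter on dim probes, both channels above background and the methods' test (8), 7 of 10 with 1 probe a gene, and 3 under median centring. The value table nearly repeats Feature Extraction's ratios, and centring on tested probes only shifts the loess values, so neither is a separate check. Leaving out each replicate gave 6 to 9. Over all probes, 4778 higher and 3633 lower became 16803 and 5941 under median centring, 3104 and 2173 with 1 probe a gene, and 3951 and 2364 with the methods' test; leaving out each replicate gave 1910 to 6326 higher and 1153 to 5548 lower. Of called probes, 56.8% were higher under loess and 73.9% under median centring. The methods' test gave 411 higher and 241 lower probes at 2-fold or more, among them 4 of the set, and without adjustment 6234 higher and 4487 lower. Under median centring, where probe 1 of Ttn, probe 2 of Neb, probe 1 of Ldb3 and Myoz2 passed as higher, signs reversed for probes 1 and 4 of Ttn (0.42 and 0.27), probe 2 of Neb (0.95), Myom1 (0.27), Myom2 (0.22), Tcap (0.096), both Ldb3 probes (0.95 and 0.20), Myoz2 (0.55) and Myoz1 (-0.18). Myoz1 also reversed to -0.13 with Feature Extraction's ratios and the value table, -0.0088 with centring on tested probes, -0.033 without background subtraction, and to -0.026 and -0.016 without replicates 1 and 4 (leave-one-out range -0.026 to 0.063). Probe 1 of Ldb3 reversed to 0.028 and 0.0024 without replicates 3 and 4 (range -0.14 to 0.028). The cause was not tested. The main test is already paired, since each ratio sets both channels of an array against each other. No further pairing was possible because all arrays form 1 group. All 4 arrays lay in 1 dye orientation, and Myot, near background in Cy3, dropped out when both channels had to be above it.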

Other observations

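Cmya5, which encodes myospryn, a large protein that binds titin and desmin partners, was named after its values were seen. It had log2 ratios of -1.66, 1.63, -0.77 and -1.80 on replicates 1 to 4, a mean of -0.65 ± 1.59 that did not pass (adjusted p = 0.436, limma). Replicate 2 also gave the smallest difference at probe 2 of Ttn (-0.53) and the largest at Tcap (-1.83), Ckm (-2.17) and Csrp3 (-1.46).

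Dst, which encodes dystonin, a giant linker of filaments, was likewise picked for its values. Its brightest probe had 0.49 ± 0.55 and its second probe -1.04, so that its probes, like those of Ttn and Neb, lay far apart.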
